A study of Homo sapiens with 39 samples.

Results

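The histone cluster genes are the family members that carry the cluster names HIST1, HIST2, HIST3 and HIST4. All rows of the expression table whose symbol begins with one of these names followed by H were taken, leaving out symbols that end in PS or in PS and a digit, which mark pseudogenes. The rule gave 75 of 46706 symbols: 6 linker histone H1 genes, 16 H2A, 23 H2B, 15 H3 and 15 H4 genes. Of these, 55 lie in the HIST1 cluster on chromosome 6, 15 in HIST2 and 4 in HIST3 on chromosome 1, and 1 in HIST4 on chromosome 12. The annotation calls 69 of them protein-coding and 6 pseudogenes.

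RNA was sequenced from HCC1428-LTED cells, a long term estrogen deprived derivative of the HCC1428 breast cancer line, kept in medium with charcoal-stripped serum and treated for 24 h. The treatments were 6 estrogen receptor ligands, each at 30 and 300 nM: fulvestrant, a steroidal receptor degrader, SAR439859, GDC-0810, AZD9496, and the 2 hybrids GDC-SAR and AZD-SAR, with DMSO vehicle as the control. In GDC-SAR the scaffold of GDC-0810 carries the side chain of SAR439859, and in AZD-SAR the scaffold of AZD9496 carries it. The labels give 3 libraries in each of 13 groups, 39 in all, while the series text speaks of duplicates. No label says that the 3 came from separate cultures, so p-values measure the spread between these libraries, which may be technical. All groups share the estrogen-deprived medium, and all come from 1 cell line.

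Values are in TPM, the share of a library's transcripts that a gene takes after scaling to transcript length. Each library sums to 1000000, so its depth is unknown. The libraries had between 15818 and 26756 symbols above 0; the lowest belonged to 1 library of 30 nM SAR439859, and all others had at least 18493. The 7 luminal breast markers (ESR1, GATA3, FOXA1, KRT8, KRT18, KRT19 and EPCAM) summed to 6142 to 12508 TPM in ligand libraries and 6348 to 7130 TPM in DMSO libraries. The 7 markers of blood, vessel, fibroblast, mesenchymal and basal cells (PTPRC, PECAM1, COL1A1, COL1A2, VIM, KRT5 and KRT14) summed to at most 21.3 TPM in ligand libraries and 10.1 TPM in DMSO libraries, and only COL1A1 was above 0 in every library. Index sequences in the labels are shared between 2 DMSO libraries and treated libraries, so the libraries were read in at least 2 pools, and a difference between pools and the effect of treatment cannot be told apart in comparisons with DMSO.

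Pairs of H2A, H2B, H3 and H4 proteins form the core around which DNA winds into a nucleosome, and H1 binds the linker DNA where it enters and leaves. Most genes of the clusters are transcribed chiefly while a cell copies its DNA, have no introns, and give mRNAs that end in a conserved stem-loop in place of a poly(A) tail. The stem-loop binding protein SLBP holds that structure through processing, translation and decay. In luminal breast cancer cells the estrogen receptor drives entry into the cell cycle, and receptor antagonists and degraders oppose it.

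The stem-loop is the sequence feature that the clusters share, so transcripts of GENCODE 29 (GRCh38) were searched for it. A match to the consensus was found in 31 of 69 members with a protein-coding transcript (44.93%), against 23 of 19600 other protein-coding genes (0.1173%). No H1 member held a match in its annotated transcript, and no match says only that those letters are not in that transcript. The stretches below show members of each core class, HIST1H3E with its differing loop among them, and the variant H2AFX. The 16 bases of the stem-loop are in capitals, with 5 bases on each side.
HIST1H2AE: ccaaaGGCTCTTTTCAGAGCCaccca
HIST1H2BF: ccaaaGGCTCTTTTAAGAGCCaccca
HIST1H3H: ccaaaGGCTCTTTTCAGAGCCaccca
HIST1H3E: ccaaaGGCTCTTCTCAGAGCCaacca
HIST1H4E: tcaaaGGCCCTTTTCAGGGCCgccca
HIST1H4B: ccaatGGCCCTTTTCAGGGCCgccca
H2AFX: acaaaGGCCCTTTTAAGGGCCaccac
Of the matches, those of all H3, all but 1 H2A and all but 2 H2B members paired GGCTCT with AGAGCC, and those of all H4 members paired GGCCCT with AGGGCC. HIST1H3E was the only member with GGCTCTTCTCAGAGCC, in which the loop is TCTC and not TTTC or TTTA as in the other H3 members. H2AFX, which encodes the variant H2A.X and lies on chromosome 11 outside the clusters, was the only 1 of 12 histone variant genes searched that held the element.

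Promoters differed by class. RefSeq (GRCh38.p14) gave promoters of 300 bases, 250 of them before the start, for 59 of 75 members and for 27305 genes in all. Both strands were searched for 6 motifs, none of which contains another. ATTTGCAT, the octamer bound by POU2F1, was in 21 members (35.6%) and in 2.19% of all genes: in 11 of 15 H2A, 9 of 13 H2B, 1 of 12 H3 and no H1 or H4 promoters. The H3 match was in HIST1H3D, in a window that is also listed for HIST1H2AD. The 150 bases before another listed start of HIST1H3D held no octamer. AAACACA, known as the H1 box, was in 6 of 6 H1 promoters, in 15.3% of members and in 6.94% of all genes. CCAAT was in every H1, H2A, H2B and H3 promoter and in 3 of 13 H4 promoters (83.1% of members, 39.7% of all genes). TATAAA was in 67.8% of members and 14% of all genes, and TTTCGCG, a form of the E2F site, in 22% of members and 1.6% of all genes. The palindromic estrogen response element, GGTCA and TGACC 3 bases apart, was in 0 of 59 members and in 0.0732% of all genes. The 150 bases before the start of 6 members that carry the results below are shown 5′ to 3′, with all matches in capitals.
HIST1H1B, chr6:27867589-27867738, minus strand: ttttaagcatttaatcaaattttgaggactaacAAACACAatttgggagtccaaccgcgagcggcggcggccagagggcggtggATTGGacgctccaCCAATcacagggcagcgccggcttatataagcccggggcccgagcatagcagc
HIST1H2AD, chr6:26199294-26199443, minus strand: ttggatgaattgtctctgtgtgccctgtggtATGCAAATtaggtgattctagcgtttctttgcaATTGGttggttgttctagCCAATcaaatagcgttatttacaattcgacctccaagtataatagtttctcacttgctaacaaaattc
HIST1H2AL, chr6:27865167-27865316, plus strand: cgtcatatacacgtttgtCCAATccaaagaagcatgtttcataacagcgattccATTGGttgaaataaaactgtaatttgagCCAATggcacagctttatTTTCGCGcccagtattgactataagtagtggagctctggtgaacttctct
HIST1H2BO, chr6:27893275-27893424, plus strand: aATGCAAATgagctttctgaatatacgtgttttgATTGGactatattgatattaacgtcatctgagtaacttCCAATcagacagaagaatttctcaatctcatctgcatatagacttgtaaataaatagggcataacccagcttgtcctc
HIST1H3F, chr6:26250636-26250785, minus strand: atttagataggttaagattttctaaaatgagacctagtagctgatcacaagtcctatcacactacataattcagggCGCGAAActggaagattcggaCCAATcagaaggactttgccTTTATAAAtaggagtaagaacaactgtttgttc
HIST1H4B, chr6:26027284-26027433, minus strand: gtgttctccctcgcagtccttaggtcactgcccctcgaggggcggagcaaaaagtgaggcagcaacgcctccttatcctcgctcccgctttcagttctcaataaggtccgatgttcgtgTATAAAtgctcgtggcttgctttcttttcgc
HIST1H2AD and HIST1H2BO show the octamer as its reverse complement, HIST1H1B shows the H1 box upstream of CCAAT motifs, and HIST1H3F and HIST1H4B show TATAAA. A match is a description of these letters, not a bound site.

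On the deposited TPM scale, transcripts of every histone class were lower after every ligand than in DMSO, whereas scaling each library to 9 other RNAs with no poly(A) tail turned the members' median log2 difference positive with 30 nM GDC-0810 (0.23, all symbols 0.87) and 30 nM AZD9496 (0.03, all symbols 0.82). The 75 members together made up 0.400% of all TPM after 300 nM fulvestrant and 1.31% in DMSO. At 300 nM they summed to 4202, 3855 and 3944 TPM in fulvestrant libraries, 3362, 3979 and 3886 TPM in SAR439859 libraries, 4770.4, 4335 and 4578 TPM in GDC-SAR libraries and 3731, 3993 and 4718 TPM in AZD-SAR libraries. The sums were 5792, 6704 and 7554 TPM in GDC-0810 libraries and 8990.2, 7729 and 6996 TPM in AZD9496 libraries, against 13958, 12889 and 12539.8 TPM in DMSO libraries. No ligand library reached the lowest DMSO library, and the GDC-0810 and AZD9496 libraries stood between the other ligands and DMSO. As ratios to the DMSO mean, the 300 nM sums were 0.305 with fulvestrant, 0.285 with SAR439859, 0.347 with GDC-SAR and 0.316 with AZD-SAR, but 0.509 with GDC-0810 and 0.602 with AZD9496. In the same order the 30 nM ratios were 0.328, 0.315, 0.339 and 0.3605, then 0.564 and 0.6098. These sums are descriptions with no test. In bulk RNA, fewer cells that express a gene and less RNA per cell cannot be told apart.

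**Figure D1:**
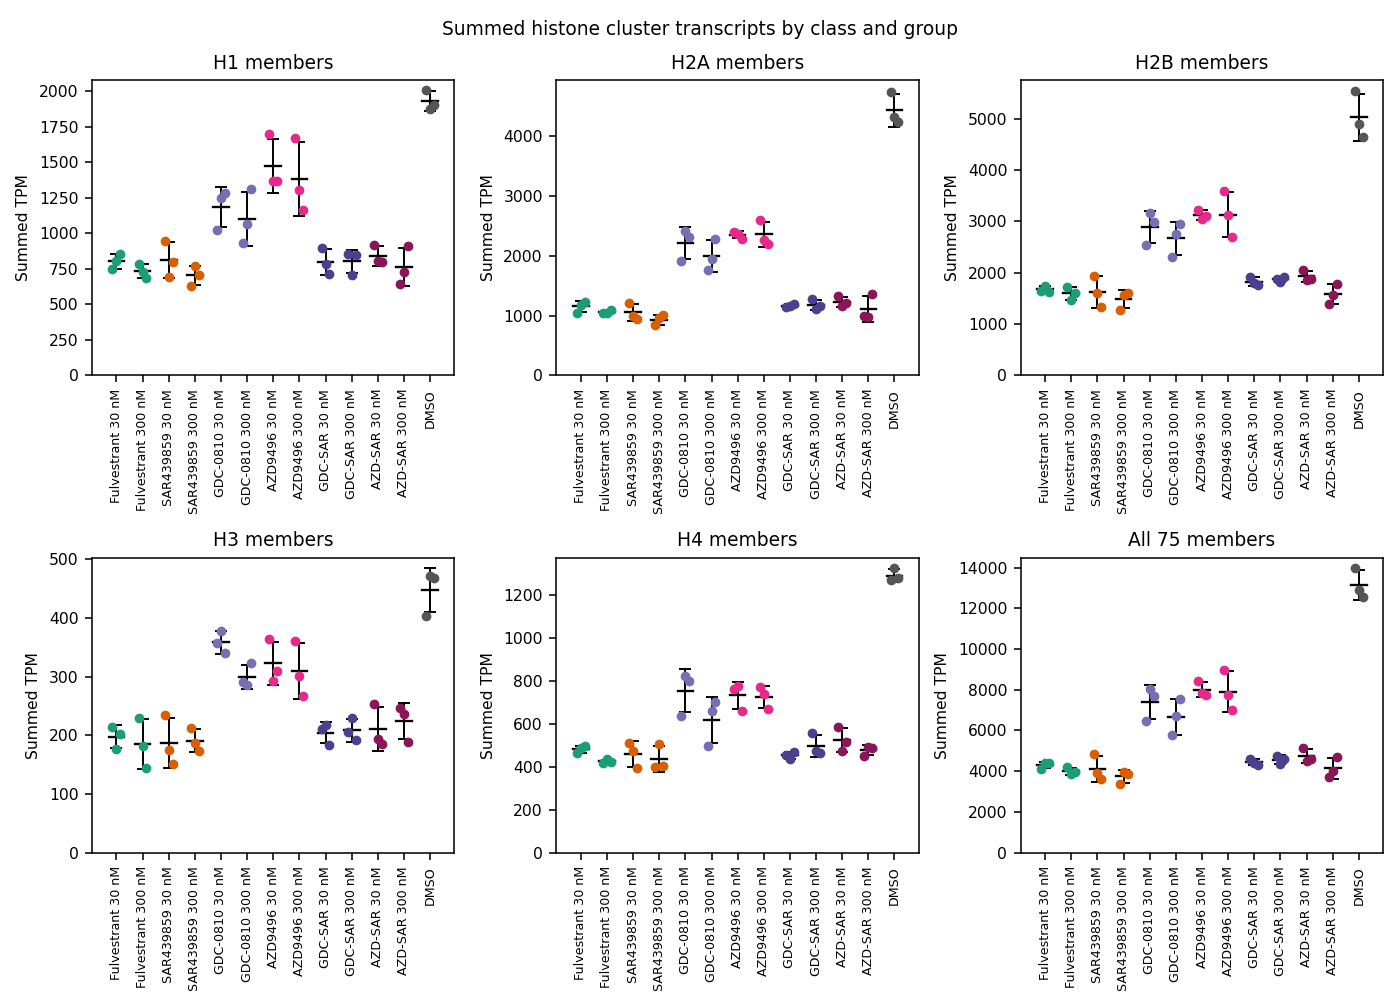
Summed TPM of the histone members by class (panels) and group (horizontal axis); points are libraries, and bars give the mean and SD of 3. Every ligand library lies below every DMSO library in all 6 panels on the deposited TPM scale; scaling each library to 9 other RNAs with no poly(A) tail turned the members' median log2 difference positive with 30 nM GDC-0810 (0.23, all symbols 0.87) and 30 nM AZD9496 (0.03, all symbols 0.82).

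The ratios to DMSO varied by class. H2A had the lowest ratios at 300 nM, 0.239 with fulvestrant (1062 ± 20.8 TPM, against 4435 ± 270.5 TPM in DMSO, mean ± SD, n = 3 each) and 0.532 with AZD9496 (2358 ± 212 TPM). H2B, the most abundant class, was at 1595 ± 131 TPM with fulvestrant and 5023 ± 458 TPM in DMSO, a ratio of 0.318, and H4 was at 425 ± 7.56 TPM with fulvestrant and 1291 ± 31.2 TPM in DMSO, a ratio of 0.329. H1 was at 733 ± 48.5 TPM with fulvestrant and 1932 ± 68.4 TPM in DMSO, a ratio of 0.379. H3 was the least abundant class, with 185 ± 43.3 TPM with fulvestrant and 448 ± 37.9 TPM in DMSO, and had the highest of the fulvestrant ratios, 0.414. H1 and H3 also had the highest ratios with AZD9496 at 300 nM, 0.715 and 0.691. Whether the ratios differ between classes was not tested. Some near-identical copies, given below, were listed at or near 0, which limits the class sums and their ranking.

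Of the 75 genes, 46 averaged 1 TPM or more across all 39 libraries and were tested one by one with limma on log2(TPM + 1), with Benjamini-Hochberg adjustment over all 14404 tested symbols and calls at adjusted p below 0.05. The 46 were 4 H1, 12 H2A, 16 H2B, 5 H3 and 9 H4 genes. Of the 29 not tested, 4 were listed at 0 in all libraries, and a fit without that filter covered 22 and called none of them in any comparison (11 of the 22 had an unadjusted p below 0.05 in at least 1 of 34 comparisons). Just under the filter were HIST1H1T (mean 0.936 TPM) and HIST1H3J (0.913 TPM), and just above it HIST1H2BM (1.24 TPM) and HIST1H4J (1.42 TPM). The 4 members known from the germ line (HIST1H1T, HIST1H2AA, HIST1H2BA and HIST3H3) were all among those not tested. Some copies are alike in sequence. A median of 1.11% of the 50-base stretches of a tested member's transcripts also occurred in another member. The highest shares were in HIST2H4A (97.5%), HIST1H2AM (86.3%), HIST1H4J (81.2%), HIST2H2BB (70.7%) and HIST1H2AI (62.3%), whose values are uncertain for that reason. The 4 members at 0 in all libraries were HIST1H2AJ (83.7% shared), HIST2H3A and HIST1H4K (100% each) and HIST2H4B (97.2%). A 0 there does not show a silent gene. HIST2H3C, like HIST2H3A an H3 gene, also shared 100%, so the H3 sum has the same limit. The H4 sum has it through HIST1H4K, HIST2H4B and HIST2H4A. The H2A sum has it through HIST1H2AJ and HIST2H2AA4 (97.1% shared).

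At 300 nM, limma called 38 of 46 members lower with fulvestrant, where 8.12% of all tested symbols were called lower. It called 38 lower with SAR439859 (background 12.8%), 39 with GDC-SAR (10.5%) and 38 with AZD-SAR (12.8%). GDC-0810 gave 32 lower members (9.04%) and AZD9496 22 (2.21%). At 30 nM the counts were 35 with fulvestrant (7.82%), 37 with SAR439859 (10.2%), 39 with GDC-SAR (11.1%), 37 with AZD-SAR (8.66%), 26 with GDC-0810 (8.83%) and 25 with AZD9496 (2.05%). No member was called higher in any of these 12 comparisons, which share the 3 DMSO libraries. Of all tested symbols, 11.1% were called higher with 300 nM fulvestrant, 11.2% with SAR439859, 9.76% with GDC-SAR, 12.7% with AZD-SAR, 6.99% with GDC-0810 and 3.71% with AZD9496. In the same order, 11.3, 15.3, 11.4, 11.9, 7.95 and 9.21% were called higher at 30 nM. The median log2 difference of the 46 members at 300 nM was -1.52 with fulvestrant, -1.63 with SAR439859, -1.36 with GDC-SAR, -1.63 with AZD-SAR, -0.99 for GDC-0810 and -0.69 for AZD9496. Medians of all tested symbols lay between 0 and 0.10 in these 6 comparisons and reached 0.185 with 30 nM AZD9496. Scaled to the same 9 RNAs with no poly(A) tail, GDC-0810 had 1 member called higher at 30 nM, as did AZD-SAR. The AZD9496 count at 300 nM was the one most open to single libraries: it fell to 13 without AZD9496 library 2 or 3 or without DMSO library 2.

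**Figure D2:**
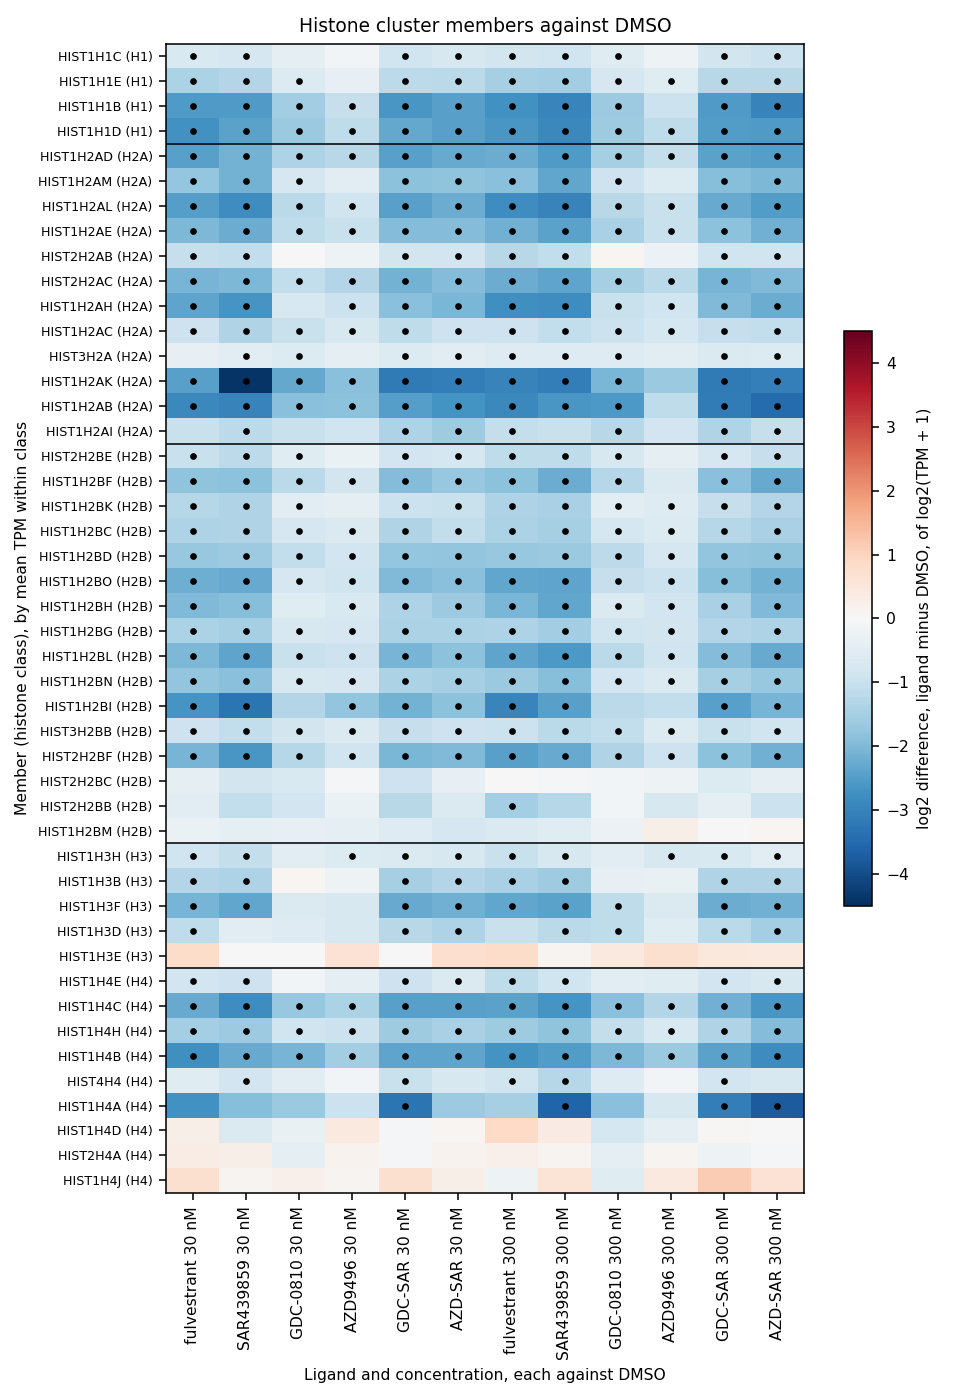
Log2 difference of log2(TPM + 1) from DMSO for the 46 tested members (rows, by class) in 12 comparisons (columns); a dot marks a call at adjusted p below 0.05. The 17 members with a dot in every column are blue throughout on the deposited scale, and 6 low members have no dot; scaling each library to 9 other RNAs with no poly(A) tail turned the members' median log2 difference positive with 30 nM GDC-0810 (0.23, all symbols 0.87) and 30 nM AZD9496 (0.03, all symbols 0.82).

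Across the 12 comparisons with DMSO, 17 members were called lower in all 12 and 40 in at least 1. At most 2.05% of all tested symbols, the share called lower with 30 nM AZD9496, can have been called lower in all 12. The shares of all symbols called in at least 10 or at least 1 were not counted. All 12 comparisons use the same 3 DMSO libraries, so their calls are not independent. Calls went with level: of the 32 members with a mean of at least 20 TPM, 25 were called in at least 10 comparisons, while 6 of the 9 members under 10 TPM were called in none. By cluster, 300 nM fulvestrant gave 30 lower calls among 36 tested HIST1 members (median -1.69), 5 among 7 HIST2 members (median -1.24) and 3 among 3 HIST3 and HIST4 members (median -0.89). With 300 nM AZD9496 the counts were 19, 2 and 1 in the same order of clusters.

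All 4 tested linker histone genes were called lower with 300 nM of every ligand but AZD9496, which gave 2. The group median at 300 nM was -2.07 with fulvestrant and -0.74 with AZD9496. At 300 nM, HIST1H1B (H1.5; GRCh38 chr6:27866849-27867529, minus strand) was at 51.5, 52.1 and 62.6 TPM in the fulvestrant libraries and 34.8, 49.3 and 59.8 TPM in the SAR439859 libraries. HIST1H1B was at 56.8, 54.4 and 81.4 TPM in the GDC-SAR libraries and 36.9, 29.6 and 87.4 TPM in the AZD-SAR libraries. It was at 79.98, 125 and 173 TPM with GDC-0810 and 196, 198 and 185 TPM with AZD9496, against 379.5, 364 and 380.4 TPM in DMSO libraries. No ligand library overlapped the DMSO libraries, and the AZD9496 libraries, which lay closely together, were above those of every other ligand. The log2 difference was -2.74 with fulvestrant and -3.01 with AZD-SAR (SE 0.30, adjusted p = 5.81e-08 and 1.14e-08), and -0.95 with AZD9496, which missed the threshold (adjusted p = 0.0554). HIST1H1D (H1.3) was at 9.66, 10.4 and 14.05 TPM with 300 nM fulvestrant, against 72.7, 80.6 and 70.2 TPM in DMSO, and was called lower in all 12 comparisons (log2 difference -2.62, adjusted p = 8.09e-09). The abundant HIST1H1C (H1.2), 1 of the members also known to be made with a poly(A) tail, moved less: it was at 416, 396 and 349 TPM with fulvestrant and 739, 563 and 489 TPM with AZD9496, against 735, 649 and 689 TPM in DMSO. Its AZD9496 libraries overlapped DMSO, with a log2 difference of -0.23 (adjusted p = 0.499), whereas fulvestrant gave -0.84 (adjusted p = 5.35e-04). HIST1H1E (H1.4) lay between, at -1.51 with fulvestrant and -0.53 with AZD9496 (adjusted p = 1.08e-08 and 0.0337).

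H2A genes gave the largest class medians at 300 nM: -2.19 with fulvestrant, where 12 of 12 were called lower, -2.39 with SAR439859 (11 lower), -1.25 with GDC-0810 (11 lower) and -0.95 with AZD9496 (6 lower). At 300 nM, HIST1H2AL (GRCh38 chr6:27865355-27865747, plus strand) was at 109, 127 and 95.2 TPM in the fulvestrant libraries and 90.1, 98.1 and 91.5 TPM in the SAR439859 libraries. HIST1H2AL was at 162, 165 and 142 TPM in the GDC-SAR libraries and 136, 102 and 163 TPM in the AZD-SAR libraries. It was at 270.5, 327 and 365 TPM with GDC-0810 and 468, 372 and 305 TPM with AZD9496, against 818, 729.7 and 738 TPM in DMSO libraries. The GDC-0810 and AZD9496 libraries lay between DMSO and all other ligands with no overlap on either side. HIST1H2AL had a log2 difference of -2.78 with fulvestrant (SE 0.16, adjusted p = 1.58e-13) and -1.01 with AZD9496 (adjusted p = 8.75e-05). HIST1H2AD was at 175, 151 and 192 TPM with 300 nM fulvestrant and 330.1, 392 and 421 TPM with AZD9496, against 708, 871 and 849 TPM in DMSO, log2 differences of -2.22 and -1.09. Every AZD9496 library was again below every DMSO library. HIST1H2AK, at 6.88, 12.5 and 18.7 TPM with fulvestrant and 93.6, 104 and 105 TPM in DMSO, and HIST1H2AB, at 3.19, 4.26 and 15.7 TPM with AZD-SAR and 55.8, 93.02 and 91.01 TPM in DMSO, had more negative differences at lower levels. These were -2.99 (adjusted p = 1.23e-04) and -3.46 (adjusted p = 7.19e-07), with wide errors (SE 0.53 and 0.44). HIST1H2AH and HIST1H2AM were called lower in 11 and 10 of the 12 comparisons with DMSO, with median log2 differences of -2.03 and -1.83 over them. The values of HIST1H2AM are uncertain because of its shared sequence.

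HIST2H2AB stood at the DMSO level with GDC-0810. It was at 95.9, 112 and 108 TPM with 300 nM fulvestrant and 161, 134 and 109.9 TPM with GDC-SAR, and at 297, 237 and 267 TPM with GDC-0810 and 242, 180.4 and 205 TPM with AZD9496, against 259.95, 249.6 and 239 TPM in DMSO. The GDC-0810 libraries overlapped DMSO, while every fulvestrant and GDC-SAR library lay below it. The log2 differences were -1.24 with fulvestrant (adjusted p = 9.76e-07), -0.90 with GDC-SAR (adjusted p = 1.29e-04) and 0.09 with GDC-0810 (adjusted p = 0.745). HIST2H2AB was called lower in 8 of 12 comparisons, in none of the 4 with GDC-0810 or AZD9496.

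**Figure D3:**
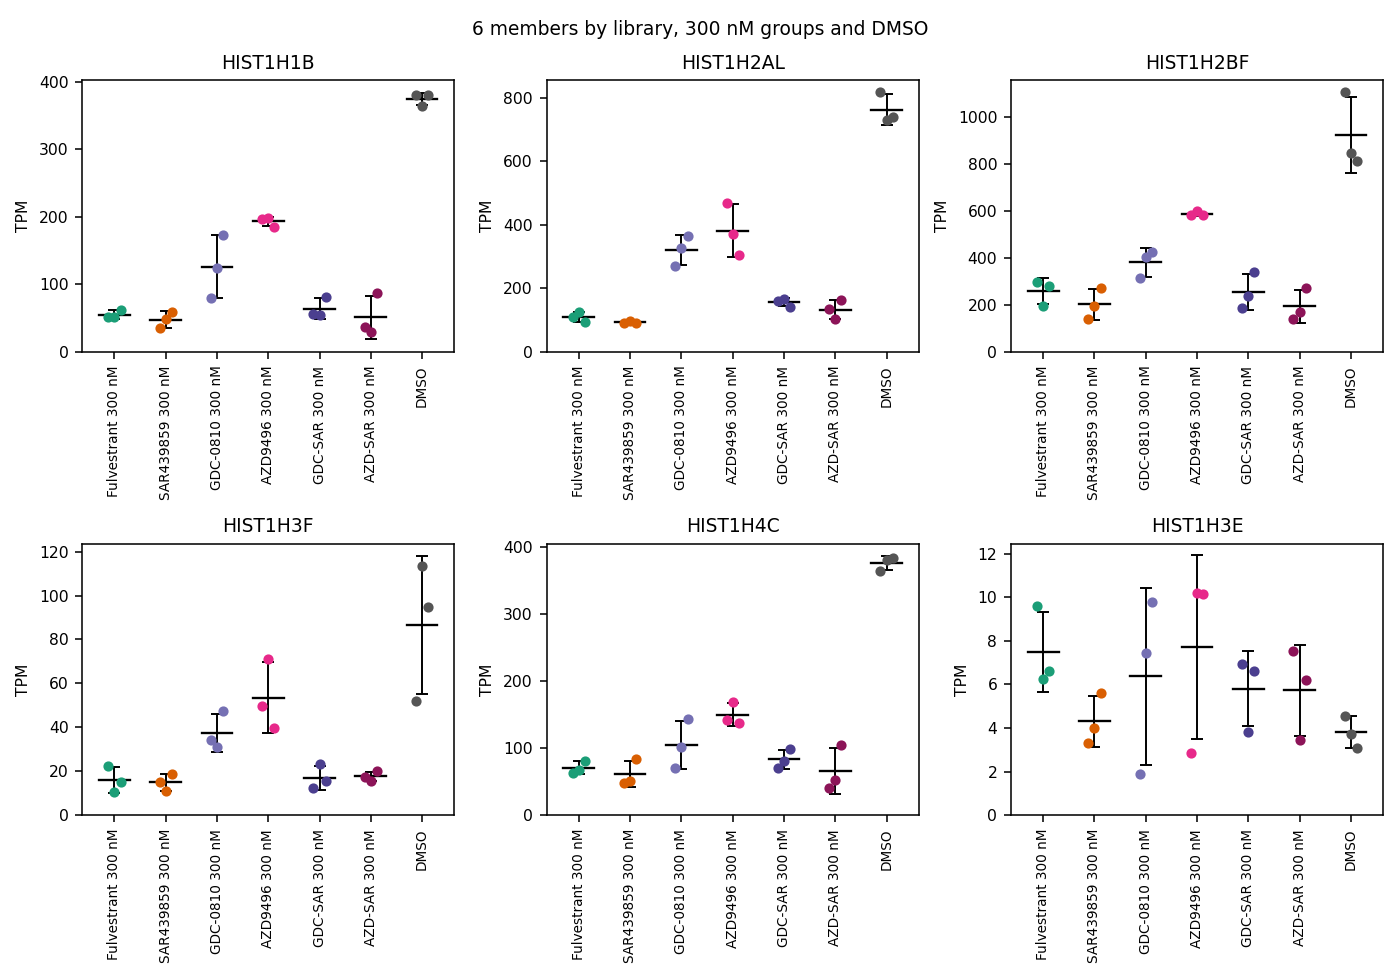
TPM of 6 members (panels) in each library of the 300 nM groups and DMSO (horizontal axis); points are libraries and bars the group mean. In 5 panels every fulvestrant, SAR439859, GDC-SAR and AZD-SAR library lies below every DMSO library, and HIST1H3E, at 1.89 to 10.2 TPM with the ligands and 3.11 to 4.57 TPM in DMSO, does not separate.

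Among the 16 tested H2B genes, 14 were called lower with 300 nM fulvestrant, 13 with SAR439859, 13 with GDC-SAR, 13 with AZD-SAR, 12 with GDC-0810 and 10 with AZD9496. At 300 nM, HIST1H2BF (GRCh38 chr6:26199520-26200715, plus strand), the neighbour of HIST1H2AD on the opposite strand, was at 299, 197 and 281 TPM in the fulvestrant libraries and 141, 195 and 270.4 TPM in the SAR439859 libraries. HIST1H2BF was at 188, 238 and 339.9 TPM in the GDC-SAR libraries and 142, 169 and 273 TPM in the AZD-SAR libraries. It was at 313, 403 and 428 TPM with GDC-0810 and 582, 598 and 584 TPM with AZD9496, against 1108, 849 and 813 TPM in DMSO libraries. All AZD9496 libraries were below the lowest DMSO library, by much less than those of the other ligands. The log2 difference was -1.84 with fulvestrant (SE 0.23, adjusted p = 5.80e-07), -2.28 with AZD-SAR (adjusted p = 1.15e-08) and -0.64 with AZD9496 (adjusted p = 0.102). HIST1H2BO, called lower in all 12 comparisons, was at 107, 82.6 and 71.5 TPM with fulvestrant, against 462, 426 and 410.4 TPM in DMSO, a log2 difference of -2.32 (adjusted p = 2.59e-11). HIST2H2BE and HIST1H2BK, both among the members also known with a poly(A) tail, had smaller differences with fulvestrant, -1.13 and -1.37 (adjusted p = 4.04e-06 and 2.47e-07). HIST1H2BD, also among those members, was lower by more, with a log2 difference of -1.72 with 300 nM fulvestrant. It was called lower in all 12 comparisons, with a median log2 difference of -1.69 over them. HIST2H2BE was at 313, 264 and 271 TPM with fulvestrant and 577, 424 and 388 TPM with AZD9496, against 664, 637 and 559 TPM in DMSO, where 1 AZD9496 library overlapped DMSO. HIST1H2BI was at 7.48, 6.15 and 7.51 TPM with fulvestrant and 61.02, 59.99 and 64.03 TPM in DMSO, a log2 difference of -2.97 with an SE of 0.58 (adjusted p = 4.24e-04).

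Of 5 tested H3 genes, 3 were called lower with 300 nM fulvestrant, 4 with SAR439859, 4 with GDC-SAR, 4 with AZD-SAR, 2 with GDC-0810 and 1 with AZD9496. At 300 nM, HIST1H3F (GRCh38 chr6:26250195-26250605, minus strand) was at 22.3, 10.6 and 15.3 TPM in the fulvestrant libraries and 15.01, 11.1 and 18.9 TPM in the SAR439859 libraries. HIST1H3F was at 12.3, 23.2 and 15.8 TPM in the GDC-SAR libraries and 17.5, 15.6 and 20.1 TPM in the AZD-SAR libraries. It was at 34.1, 31.2 and 47.3 TPM with GDC-0810 and 49.9, 71.2 and 39.5 TPM with AZD9496, against 51.9, 113 and 94.97 TPM in DMSO libraries. The AZD9496 libraries overlapped DMSO, and no library of the other 5 ligands did. The log2 differences were -2.35 with fulvestrant (SE 0.33, adjusted p = 4.33e-06), -1.14 with GDC-0810 (adjusted p = 0.0181) and -0.65 with AZD9496 (adjusted p = 0.281). HIST1H3B was at 66.4, 55.4 and 34.4 TPM with fulvestrant, 97.8, 111 and 117 TPM with GDC-0810 and 156, 100.4 and 92.98 TPM with AZD9496, against 155, 125 and 147 TPM in DMSO. Only AZD9496 overlapped DMSO here, and the log2 differences were -1.47, -0.38 and -0.32 (adjusted p = 1.26e-05, 0.255 and 0.478). HIST1H3H, the most abundant H3 member, was at 115, 102 and 77.6 TPM with fulvestrant and 176, 211 and 201 TPM in DMSO, a log2 difference of -1.001 (adjusted p = 1.99e-04). HIST1H3E, the member with the TCTC loop, was at 9.59, 6.25 and 6.62 TPM with fulvestrant and 2.87, 10.2 and 10.2 TPM with AZD9496, against 4.57, 3.73 and 3.11 TPM in DMSO. Its log2 differences of 0.81 and 0.72 had an SE of 0.62 and were not called (adjusted p = 0.39 and 0.582). HIST1H3E was 1 of 6 members called lower in none of the 12 comparisons with DMSO, all with a mean under 10 TPM. HIST2H4A and HIST1H4J, also among the 6, lack the TCTC loop and had positive medians over these comparisons, 0.11 and 0.36. Whether the loop has a part was not tested.

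Of 9 tested H4 genes, 5 were called lower with 300 nM fulvestrant, 6 with SAR439859, 6 with GDC-SAR, 5 with AZD-SAR, 3 with GDC-0810 and 3 with AZD9496. At 300 nM, HIST1H4C (GRCh38 chr6:26103876-26104310, plus strand) was at 63.4, 67.8 and 81.6 TPM in the fulvestrant libraries and 48.5, 51.5 and 83.4 TPM in the SAR439859 libraries. HIST1H4C was at 70.7, 81.6 and 98.3 TPM in the GDC-SAR libraries and 40.8, 53.1 and 105 TPM in the AZD-SAR libraries. It was at 71.03, 101 and 143 TPM with GDC-0810 and 143, 169.5 and 137 TPM with AZD9496, against 364, 381 and 384 TPM in DMSO libraries. DMSO stood far above all ligands, and AZD-SAR library 3 stood above the other two of its group. HIST1H4C was called lower in all 12 comparisons, with log2 differences of -2.40 with fulvestrant (SE 0.31, adjusted p = 1.23e-06) and -1.33 with AZD9496 (adjusted p = 0.00795). HIST1H4B was at 26.4, 29.4 and 30.6 TPM with GDC-SAR and 58.4, 49.02 and 40.3 TPM with AZD9496, against 137, 169.9 and 171 TPM in DMSO. It and HIST1H4H were also called in all 12, with log2 differences of -1.68 and -0.68 for 300 nM AZD9496 (adjusted p = 4.61e-05 and 0.0438). The most abundant H4 member, HIST1H4E, was at 209, 232 and 174 TPM with fulvestrant and 454, 463 and 448 TPM in DMSO, a log2 difference of -1.16 (adjusted p = 1.68e-04). HIST1H4A was low and uneven: it was at 0, 1.58 and 2.71 TPM with SAR439859 and 0, 0 and 6.26 TPM with AZD-SAR, against 27.4, 32.98 and 16.6 TPM in DMSO. Its log2 differences of -3.60 and -3.73 passed the threshold (adjusted p = 0.0121 and 0.00906) with an SE of 1.05. HIST1H4D and HIST1H4J, both under 10 TPM, were not called, at 0.90 with fulvestrant (SE 0.90, adjusted p = 0.528) and 1.16 with GDC-SAR (SE 0.65, adjusted p = 0.218).

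The members were also described by their annotated 3′ end. For 16 tested members GENCODE lists a transcript that runs more than 200 bases past the stem-loop, as poly(A)-tailed histone mRNAs do. With 300 nM fulvestrant, 13 of these 16 were called lower, with a median log2 difference of -1.06, and 6 of 7 members whose annotated stem-loop lies within 200 bases of the end of every transcript that holds it, with a median of -1.72. For the other 23 tested members, HIST1H1C and HIST1H2BK among them, no annotated transcript held the stem-loop, so their 3′ end could not be placed; 19 of them were called lower, with a median of -2.22. With 300 nM AZD9496 the medians were -0.63, -0.85 and -0.71 for the 16, 7 and 23 members in turn. The 5 tested members of a list known to be made with a poly(A) tail in differentiated cells (HIST1H1C, HIST1H2AC, HIST1H2BD, HIST1H2BK and HIST2H2BE) were all called lower with fulvestrant (median -1.13), and 33 of the other 41 were (median -1.58). These splits are descriptions, and deposited values per symbol do not tell the tailed from the untailed form.

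Genes around histone supply were read beside the members. Of 8 genes of DNA synthesis (CDC45, CDC6, CDT1, MCM5, PCNA, RRM2, TK1 and TYMS), 8 were called lower with 300 nM fulvestrant, SAR439859, GDC-SAR and AZD-SAR, 7 with GDC-0810 and 5 with AZD9496, with medians of -1.90 for fulvestrant and -0.81 for AZD9496. PCNA, the sliding clamp of replication, was at 15.1, 12.3 and 11.4 TPM with fulvestrant, against 37.6, 44.1 and 42.2 TPM in DMSO (log2 difference -1.61, adjusted p = 9.03e-08). Of 16 histone chaperones, 13 were called lower with 300 nM fulvestrant and with SAR439859, 12 with each hybrid, 8 with GDC-0810 and 5 with AZD9496. CHAF1A, the large subunit of the factor that loads H3 and H4 behind the fork, had a log2 difference of -1.92 with fulvestrant, and ASF1B, which hands H3 and H4 to it, -1.71 (adjusted p = 1.43e-05 and 1.18e-06). No gene of either list was called higher at 300 nM. Of all tested symbols, 8.12% were called lower and 11.1% higher with 300 nM fulvestrant. The shares were 12.8 and 11.2% with SAR439859, 10.5 and 9.76% with GDC-SAR, and 12.8 and 12.7% with AZD-SAR. They were 9.04 and 6.99% with GDC-0810, and 2.21 and 3.71% with AZD9496. The part of the listed genes in the lower histone values was not tested.

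Of 18 genes of histone gene transcription and mRNA processing, 6 were called lower and 2 higher with 300 nM fulvestrant, and 3 lower and 2 higher with AZD9496. Of all tested symbols, 8.12% were called lower and 11.1% higher with 300 nM fulvestrant, and 2.21 and 3.71% with AZD9496. The higher count with fulvestrant was near its share. E2F1 and CCNE2, a cell cycle transcription factor and a cyclin of the start of DNA synthesis, were called lower in all 12 comparisons, with log2 differences of -1.95 and -1.94 for 300 nM fulvestrant (adjusted p = 2.52e-11 and 1.87e-05). SLBP was at 8.66, 6.498 and 6.69 TPM with fulvestrant, against 17.2, 16.3 and 14.2 TPM in DMSO, with no overlap, and was called lower in 8 of 12 comparisons (log2 difference -1.03 with fulvestrant, adjusted p = 3.88e-04). NPAT, which activates the clusters, and HINFP, which binds H4 promoters, had log2 differences of -0.17 and 0.43 and were not called (adjusted p = 0.745 and 0.248). SYMPK, the scaffold of the cleavage complex, and UPF1, which acts in histone mRNA decay, were called higher (0.56 and 0.66, adjusted p = 0.00631 and 0.0094). Of 11 tested histone variant genes, 4 were called lower with 300 nM SAR439859 (median -0.51), 4 with AZD-SAR (-0.29), 3 with GDC-0810 (-0.27), 3 with GDC-SAR (-0.26) and 2 with fulvestrant (-0.33). In the same order, 12.8, 12.8, 9.04, 10.5 and 8.12% of all tested symbols were called lower. Limma called 0 of the 11 lower with 300 nM AZD9496 (median -0.14, share of all symbols 2.21%), where 2 had an unadjusted p below 0.05. It called 0 higher with 300 nM of any ligand, against 3.71 to 12.7% of all symbols. H2AFX, the variant with the stem-loop, was at 44.2, 31.9 and 43.95 TPM with fulvestrant, against 141, 143 and 132 TPM in DMSO, and was called lower in 11 of 12 comparisons (-1.78 with fulvestrant, adjusted p = 9.94e-08).

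Other RNAs that carry no poly(A) tail moved with the comparison to DMSO. Of 19 such RNAs listed, 9 are in the table (RN7SL1, RN7SL2, RMRP, RPPH1, TERC, RNU11, RNU12, SCARNA2 and SNORD3A). Together they took 5.73 to 11.5% of TPM as group means after ligand and 19.6% in DMSO, where the 3 libraries were at 209943, 192391 and 184894 TPM. RN7SL1, RMRP, RPPH1 and RNU11 averaged 7754 to 29792 TPM over the 39 libraries, and the others of the 9 averaged 23.7 to 144 TPM. The sum thus rests on the abundant RNAs, while the scaling used the geometric mean of TPM + 1 and weighted all 9 alike. With 300 nM, limma called 2 of the 9 lower with fulvestrant, 4 with SAR439859, 5 with GDC-0810, 0 with AZD9496 (1 at an unadjusted p below 0.05), 3 with GDC-SAR and 5 with AZD-SAR. In the same order, 8.12, 12.8, 9.04, 2.21, 10.5 and 12.8% of all tested symbols were called lower. RN7SL2, a near copy of RN7SL1, was called higher with GDC-0810, GDC-SAR and AZD-SAR, as were 6.99, 9.76 and 12.7% of all symbols. In AZD-SAR libraries at 300 nM the 9 RNAs summed to 37107, 33207 and 114420.0 TPM beside histone sums of 3731, 3993 and 4718 TPM, and in SAR439859 libraries to 31899.7, 60146 and 106984 TPM beside 3362, 3979 and 3886 TPM. In all 12 ligand groups the sum of the 9 RNAs was higher in the library with the highest library number in the sample titles than in the one with the lowest, and in DMSO it was lower. Scaling each library to these 9 RNAs, a choice made after seeing the data, left 19 of 38 lower calls with 300 nM fulvestrant, 21 of 38 with SAR439859, 14 of 39 with GDC-SAR, 19 of 38 with AZD-SAR, 4 of 32 with GDC-0810 and 0 of 22 with AZD9496, where 8 members had an unadjusted p below 0.05. Under it all tested symbols had medians of 0.38 to 0.97 above DMSO over the 12 comparisons. The part of these RNAs in the lower histone values was not tested.

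**Figure D4:**
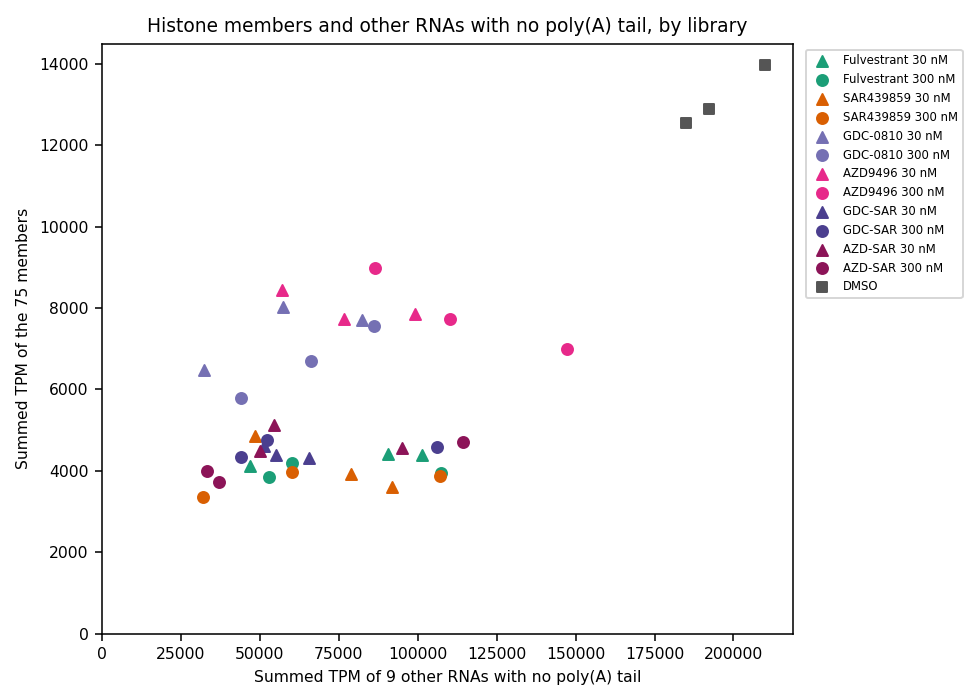
Summed TPM of 9 other RNAs with no poly(A) tail (horizontal axis) against summed TPM of the 75 histone members (vertical axis); each point is a library, coloured by ligand and shaped by concentration. Ligand libraries lie at 31899.7 to 147359 TPM across and 3362 to 8990.2 TPM up, and the DMSO libraries apart from them at 184894 to 209943 and 12539.8 to 13958 TPM.

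The hybrids were set against the parent whose scaffold they carry, at matched concentration. This sets the SAR439859 side chain against the parent's own, so loss of the one and gain of the other cannot be told apart. Neither difference uses DMSO, but the DMSO libraries entered the expression filter and the shared estimate of the spread behind the p-values. The summed histone TPM was lower with the hybrid in both pairs at both concentrations, and the members' median log2 difference was negative both as deposited and when scaled to the 9 RNAs with no poly(A) tail. The members summed to 4770.4, 4335 and 4578 TPM with 300 nM GDC-SAR and 5792, 6704 and 7554 TPM with GDC-0810, a ratio of 0.683, and to 3731, 3993 and 4718 TPM with 300 nM AZD-SAR and 8990.2, 7729 and 6996 TPM with AZD9496, a ratio of 0.525. At 30 nM the ratios were 0.601 for GDC-SAR and 0.591 for AZD-SAR. Every hybrid library lay below every parent library in all class sums, with the exception of H4 for GDC-SAR and GDC-0810 at 300 nM, at a ratio of 0.804.

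Limma called 15 of 46 members lower with GDC-SAR than with GDC-0810 at 30 nM (background 0.701%) and 9 at 300 nM (0.687%). For AZD-SAR against AZD9496 it called 20 lower at 30 nM (1.51%) and 28 at 300 nM (6.4%), and no member was called higher in any of the 4 comparisons, against 0.583, 0.562, 0.167 and 2.17% of all symbols. All 3 hybrid libraries lay below all 3 parent libraries for 31 and 21 members with GDC-SAR at 30 and 300 nM (background 7.91 and 6.37%), and for 31 and 33 with AZD-SAR (17.9 and 15.5%). The median log2 differences were -0.69 and -0.50 for GDC-SAR at 30 and 300 nM and -0.67 and -1.01 for AZD-SAR, beside all-gene medians of 0.03, 0.02, -0.11 and -0.07 in the same order. By class, 7 of 12 H2A, 5 of 16 H2B, 2 of 5 H3, 1 of 9 H4 and 0 of 4 H1 genes were called for GDC-SAR at 30 nM. For AZD-SAR at 300 nM 4 of 4 H1, 8 of 12 H2A, 11 of 16 H2B, 2 of 5 H3 and 3 of 9 H4 genes were called.

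HIST1H2AL was called lower with the hybrid in all 4 comparisons. At 300 nM it averaged 156 TPM with GDC-SAR and 321 TPM with GDC-0810, a log2 difference of -1.02 (95% interval -1.34 to -0.71, adjusted p = 3.10e-04). It averaged 133 TPM with AZD-SAR and 382 TPM with AZD9496, a log2 difference of -1.51 (95% interval -1.83 to -1.19, adjusted p = 1.83e-07). The 3 libraries of each hybrid, given above, lay below all 3 of its parent. HIST1H1B averaged 51.3 TPM with AZD-SAR and 193 TPM with AZD9496, a log2 difference of -2.05 (95% interval -2.67 to -1.44, adjusted p = 5.99e-05) at 300 nM, and HIST1H2BF averaged 194 TPM with AZD-SAR and 588 TPM with AZD9496, a log2 difference of -1.65 (95% interval -2.12 to -1.18, adjusted p = 2.94e-05). HIST1H2AB was at 3.19, 4.26 and 15.7 TPM in 300 nM AZD-SAR libraries and 37.8, 33.7 and 32.2 TPM in AZD9496 libraries, with no overlap. Its means were 7.73 TPM with AZD-SAR and 34.6 TPM with AZD9496, a log2 difference of -2.31 (95% interval -3.20 to -1.41, adjusted p = 0.00129), the most negative called difference of that pair.

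At 30 nM, HIST1H3F had the most negative called difference in both pairs. It was at 17.8, 26.4 and 9.403 TPM in GDC-SAR libraries and 42.3, 61.5 and 55.2 TPM in GDC-0810 libraries, and at 15.8, 21.97 and 15.2 TPM in AZD-SAR libraries and 51.2, 62.2 and 38.2 TPM in AZD9496 libraries. No hybrid library overlapped its parent. HIST1H3F averaged 17.9 TPM with GDC-SAR and 52.99 TPM with GDC-0810, a log2 difference of -1.61 (95% interval -2.28 to -0.93, adjusted p = 0.00704). HIST1H3B, which encodes the same H3.1 protein, averaged 49.6 TPM with GDC-SAR and 149.8 TPM with GDC-0810, a log2 difference of -1.57 (95% interval -2.03 to -1.12, adjusted p = 6.94e-05). For the AZD pair, HIST1H3F averaged 17.7 TPM with AZD-SAR and 50.6 TPM with AZD9496, a log2 difference of -1.46 (95% interval -2.13 to -0.78, adjusted p = 0.0136). HIST2H2AB, which did not differ detectably between GDC-0810 and DMSO, averaged 135 TPM with GDC-SAR and 267 TPM with GDC-0810, a log2 difference of -0.99 (95% interval -1.31 to -0.66, adjusted p = 5.83e-04) at 300 nM. The abundant linker gene HIST1H1E was at 304, 344 and 349.98 TPM in 300 nM AZD-SAR libraries and 705, 509 and 459.5 TPM in AZD9496 libraries, without overlap. It averaged 333 TPM with AZD-SAR and 558 TPM with AZD9496, a log2 difference of -0.72 (95% interval -1.03 to -0.41, adjusted p = 0.00353) at 300 nM. HIST1H3H was not called in any of the 4 pairs, and averaged 138 TPM with AZD-SAR and 118 TPM with AZD9496, a log2 difference of 0.21 (95% interval -0.17 to 0.59, adjusted p = 0.505) at 300 nM.

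**Figure D5:**
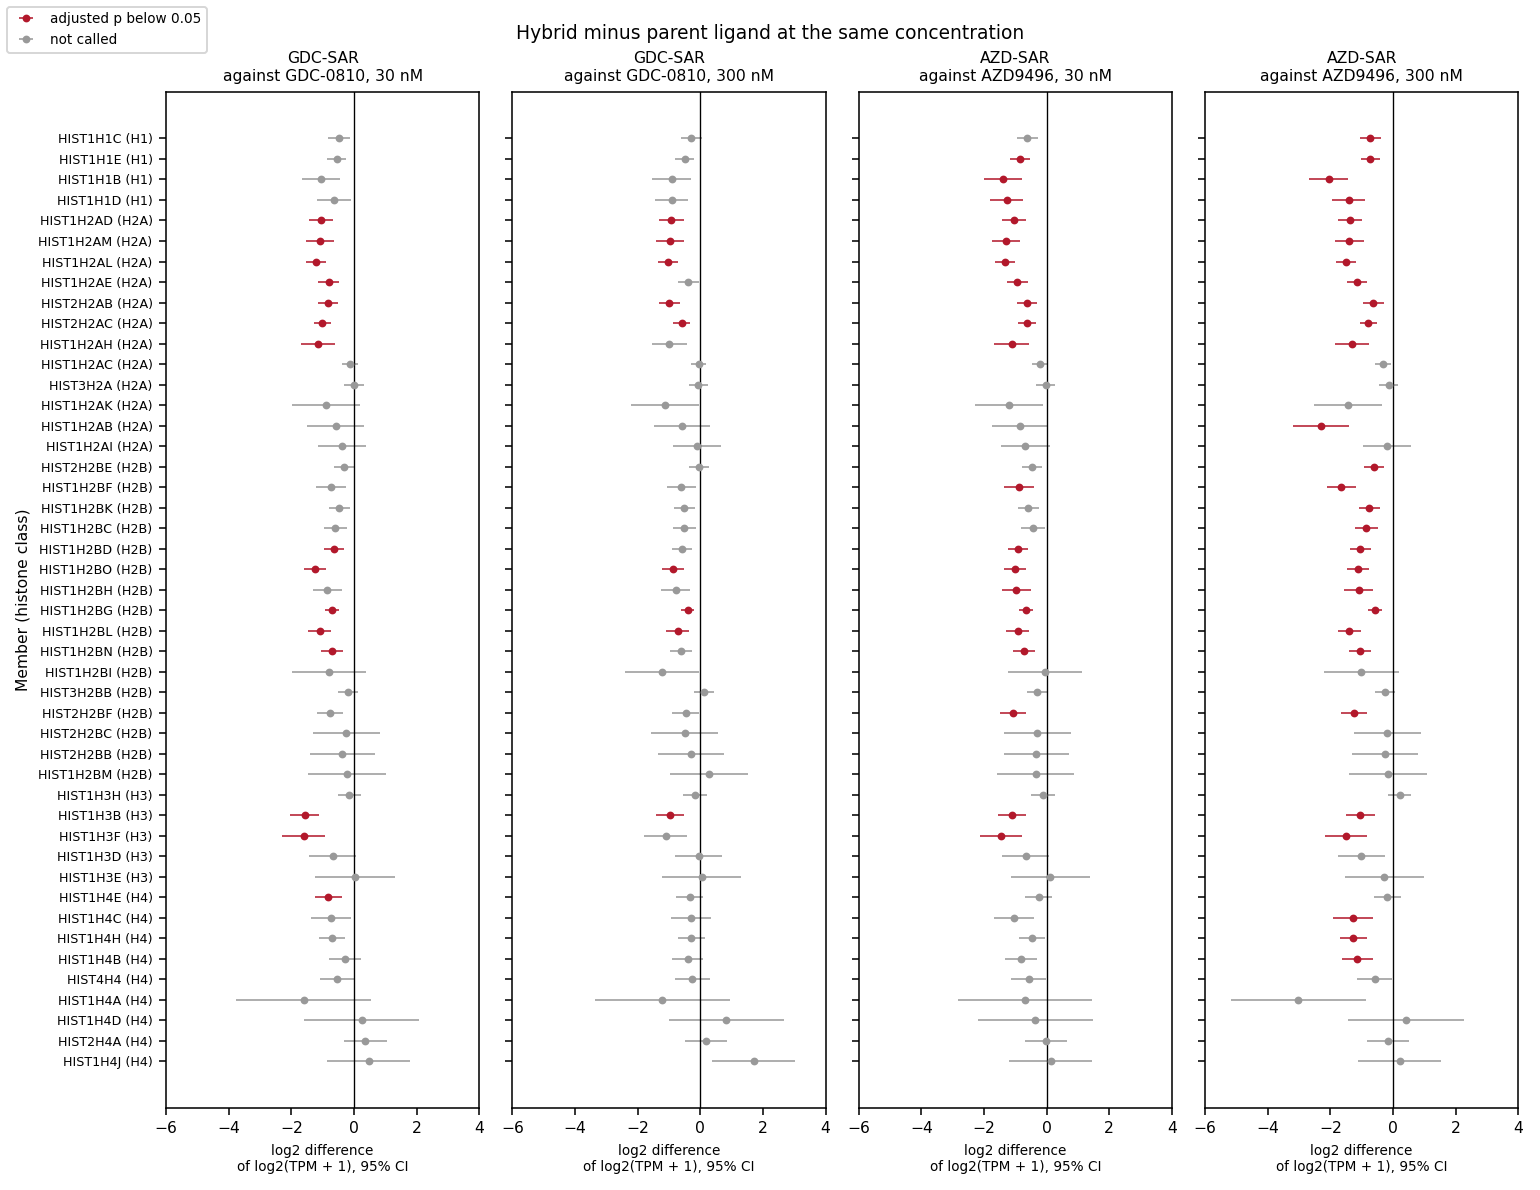
Log2 difference of hybrid minus parent with its 95% interval for the 46 tested members (rows) in 4 comparisons (panels); red marks adjusted p below 0.05. Called members all lie left of 0, 15 and 9 for GDC-SAR and 20 and 28 for AZD-SAR at 30 and 300 nM. Scaled to the 9 RNAs with no poly(A) tail, 7 of the 28 changed sign, where the median of all symbols was 0.60.

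The number of calls depended on how the spread was estimated. With only the 6 libraries of a comparison in the fit, the calls were 4 for GDC-SAR and 5 for AZD-SAR at 30 nM, and 0 (24 members at an unadjusted p below 0.05) and 1 at 300 nM. Scaling to the 9 RNAs with no poly(A) tail gave 1 call in each pair at 30 nM, and 0 for GDC-SAR (15 at an unadjusted p below 0.05) and 1 for AZD-SAR at 300 nM. The member medians under it were -0.77 for GDC-SAR and -0.49 for AZD-SAR at 30 nM, and -0.55 and -0.26 in the same order at 300 nM. Under that scaling 18 members changed sign for AZD-SAR at 300 nM, 7 of them among the 28 called, while the median of all symbols moved from -0.07 to 0.60. The 300 nM GDC-SAR count fell to 4 without GDC-0810 library 2 or 3 or GDC-SAR library 2, and to 5 without GDC-SAR library 3. The 30 nM GDC-SAR count fell to 9 without GDC-0810 library 2. In the AZD pair at 300 nM the 9 RNAs with no tail were themselves lower with the hybrid (median log2 difference -1.02). Limma called 2 of them lower, against 6.4% of all symbols. In the GDC pair at 300 nM their median was 0.00 and limma called 0 of them (0 at an unadjusted p below 0.05). Their part in the hybrid differences was not tested.

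Whether the side chain acted differently on the 2 scaffolds was tested directly. Limma called 0 of 46 members at either concentration, where 0 and 0.00694% of all tested symbols were called at 30 and 300 nM. There was 1 member at an unadjusted p below 0.05 at 30 nM and 11 at 300 nM. All 11 had a more negative difference on the AZD9496 scaffold as deposited, while 32 of 46 members changed sign when scaled to the 9 RNAs with no poly(A) tail. At 300 nM that scaling moved the median of all symbols from -0.09 to 0.63. Among the 11, as deposited, HIST1H2BF differed by -1.04 (95% interval -1.71 to -0.38, adjusted p = 0.185) and HIST1H4H by -0.98 (95% interval -1.57 to -0.39, adjusted p = 0.183). Without library 3 of 300 nM AZD-SAR, 5 members were called.

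The remaining ligand pairs were compared in the same fit. For 5 further pairs at each concentration (GDC-SAR and AZD-SAR against SAR439859, AZD-SAR against GDC-SAR, AZD9496 against GDC-0810, and SAR439859 against fulvestrant), limma called 0 of 46 members. Of all tested symbols 0.257, 0.0555, 0, 0.0208 and 0.0139% were called in either direction at 30 nM, and 0, 0, 0, 1.12 and 0% at 300 nM, in the order of the pairs. At an unadjusted p below 0.05 the counts were 10, 12, 0, 3 and 3 at 30 nM and 12, 5, 2, 10 and 1 at 300 nM, in the same order. HIST1H2AL differed by 0.74 (95% interval 0.42 to 1.06, adjusted p = 0.24) between GDC-SAR and SAR439859 and by 0.49 (95% interval 0.17 to 0.81, adjusted p = 0.609) between AZD-SAR and SAR439859 at 300 nM. HIST1H1B differed by -0.03 (95% interval -0.65 to 0.58, adjusted p = 0.998) between AZD-SAR and SAR439859. Between the parents, HIST1H1B differed by 0.68 (95% interval 0.07 to 1.30, adjusted p = 0.191) and HIST1H2BF by 0.64 (95% interval 0.17 to 1.11, adjusted p = 0.113), short of the threshold. Between these parents 30 of 46 members changed sign when scaled to the 9 RNAs with no poly(A) tail. At 300 nM that scaling moved the median of all symbols for this pair from 0.10 to -0.38. Leaving out 1 library gave calls in some pairs: up to 3 for AZD9496 against GDC-0810 at 300 nM without GDC-0810 library 3, up to 3 for GDC-SAR against SAR439859 at 30 nM without SAR439859 library 1 (1 without library 2), and up to 2 for AZD-SAR against SAR439859 (1 without library 1) and for SAR439859 against fulvestrant at 30 nM without SAR439859 library 2. A p that misses the threshold does not show that 2 ligands act alike.

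Differences between the concentrations were not detectable for single members. Between 300 nM and 30 nM of the same ligand, limma called 0 of 46 members for each of the 6 ligands, and 0% of all tested symbols. Without SAR439859 30 nM library 2, 1 member was called for SAR439859. The numbers at an unadjusted p below 0.05 were 1 with fulvestrant, 4 with SAR439859, 3 with GDC-0810, 0 with AZD9496, 0 with GDC-SAR and 3 with AZD-SAR. HIST1H2AL averaged 110.4 TPM at 300 nM and 136 TPM at 30 nM of fulvestrant, and 382 and 412 TPM at 300 nM and 30 nM of AZD9496. The summed histone TPM was 4000.1 ± 180.1 TPM at 300 nM and 4305 ± 160.2 TPM at 30 nM of fulvestrant, and 7905 ± 1009 and 8006 ± 384 TPM at 300 nM and 30 nM of AZD9496 (mean ± SD, n = 3 each).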

How the data were processed

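RNA was sequenced with a stranded kit from 39 libraries. The authors deposited 1 table of TPM by symbol (transcript levels scaled to length), in which each library sums to 1000000. The submitters' processing notes name STAR and GRCh38 (versions: not given in the sources used here). Depth per library, and so the precision that counting allows, is unknown. Values were taken as log2(TPM + 1), and symbols with a mean of 1 TPM or more were fitted in limma 3.58.1 (R 4.3.3, empirical Bayes with trend) with 1 mean per group, 39 libraries and 26 residual degrees of freedom. Python 3.11.15 gave sums and figures. The fit was tested on simulated data. TPM differences are relative within a library.

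Members and gene lists were chosen with earlier results of these data known. Named are the 3 most abundant tested members of each class, the 3 most negative and the 1 most positive difference from DMSO per 300 nM comparison, and up to 5 members called per hybrid comparison. Alternatives were a pseudocount of 0.1, no filter, a mean of 5 TPM or more, median-of-ratios scaling, fits on the 6 libraries of a comparison, and dropping each library in turn. Scaling to 9 RNAs with no poly(A) tail, leaving out the SAR439859 30 nM libraries, and a block on the order of library numbers within groups were added after seeing the data. Replicate numbers follow accession order. Stem-loops were searched in GENCODE 29 transcripts and promoter motifs in RefSeq sequences; protein sequences were not used here.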

Additional observations from a re-analysis of the deposited data

How the results depend on the processing

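The labels give no replicate numbers that tie libraries of different groups, but libraries at the same place in the order of library numbers in their titles shared some of their spread. In all 13 groups the luminal marker sum was higher in the library with the lowest number than in that with the highest. Deviations from the group means had a median correlation across symbols of 0.053 over 234 pairs at the same place (65 above 0.1) and -0.0278 over 468 other pairs. A replicate block on this order, chosen after seeing the data, kept all calls, gave 18 and 12 for GDC-SAR and 22 and 30 for AZD-SAR against their parents at 30 and 300 nM, and 2 for AZD9496 against GDC-0810 at 300 nM. The block together with scaling to the 9 RNAs with no poly(A) tail gave, against DMSO at 30 and 300 nM, 25 and 24 calls with fulvestrant, 26 and 25 with SAR439859, 9 and 6 with GDC-0810, 5 and 2 with AZD9496, 20 and 20 with GDC-SAR, and 20 and 22 with AZD-SAR. In the hybrid comparisons it gave 7 for GDC-SAR and 1 for AZD-SAR at 30 nM, and 1 and 6 at 300 nM. Whether the order marks a batch was not tested. No count or sum reversed direction under the alternatives listed in the methods other than scaling to RNAs with no poly(A) tail, and a pseudocount of 0.1, no filter and a mean of 5 TPM or more kept all 34 counts within 1.5 times. Median-of-ratios scaling moved the all-symbol median with 30 nM AZD9496 to 0.00 (0.185 as deposited), gave 14 calls for GDC-SAR against GDC-0810 at 300 nM, and gave ratios to DMSO of 0.227 for H2A, 0.313 for H4 and 0.289 for all members with 300 nM fulvestrant, 0.307 for all members with 30 nM fulvestrant, 0.520 for H4 with 300 nM AZD9496 and 0.527 for all members with 30 nM AZD9496. With only the libraries compared, calls were 4 for GDC-SAR and 5 for AZD-SAR against their parents at 30 nM, and 0 and 1 at 300 nM, where fewer libraries give fewer degrees of freedom.

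Scaled to the 9 RNAs with no poly(A) tail, a choice made after seeing the data, calls against DMSO at 30 nM were 19 with fulvestrant, 21 with SAR439859, 4 with GDC-0810 (3 lower, 1 higher), 3 with AZD9496, 16 with GDC-SAR and 17 with AZD-SAR (16 lower, 1 higher). At 300 nM there were 19, 21, 4, 0 (8 at an unadjusted p below 0.05), 14 and 19 calls for those ligands in turn. The hybrids against their parents gave 1 for each at 30 nM, and 0 for GDC-SAR and 1 for AZD-SAR at 300 nM. Between 2 and 26 members changed sign per comparison with DMSO, where all tested symbols had medians of 0.38 to 0.97. The cause was not tested. Without the SAR439859 30 nM libraries, also chosen after seeing the data, calls were 14 for GDC-SAR against GDC-0810 and 1 for AZD9496 against GDC-0810 at 300 nM.

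Leaving out 1 library gave 9 to 12 calls for GDC-SAR against GDC-0810 at 30 nM and 4 to 8 at 300 nM, 14 to 18 for AZD-SAR against AZD9496 at 30 nM and 23 to 32 at 300 nM, and 13 to 21 for 300 nM AZD9496 against DMSO. It gave 0 to 3 for GDC-SAR against SAR439859 at 30 nM and for AZD9496 against GDC-0810 at 300 nM, 0 to 2 for AZD-SAR against SAR439859 and for SAR439859 against fulvestrant at 30 nM, 0 to 1 for 300 against 30 nM SAR439859, and 0 to 5 for the side chain on the 2 scaffolds at 300 nM. Ratios to DMSO were 0.234 to 0.248 for H2A with 300 nM fulvestrant and 0.359 to 0.393 for H2B with 300 nM GDC-SAR. With 3 libraries a group, unknown depth and some near-identical copies, low members have wide errors, and a missing call does not show equal levels.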
